A study of Mus musculus and Homo sapiens with 40 samples.

Results

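A total of 41 human genes of amino acid supply and tRNA charging were located in the list of ATF4 binding sites of KO-52 cells, out of 20033 protein-coding genes of the annotation. The genes were chosen by name: 18 cytosolic aminoacyl-tRNA synthetases, 11 enzymes of amino acid synthesis, 4 mitochondrial one-carbon enzymes and 8 amino acid transporters. These genes, and the motifs searched below, were chosen with earlier results of these data known. For each gene, sites were sorted into promoter sites (summit within 1000 bp of an annotated start site), gene body sites (elsewhere inside the gene) and sites within 50 kb of the gene. KO-52 is a human acute myeloid leukaemia line with mutant CEBPA, and the cells were exposed to 2 µg/mL tunicamycin for 4 h before fixation with disuccinimidyl glutarate and formaldehyde. The ATF4 list came from 1 library called against an input, with no replicate and without an ATF4 library from untreated cells, so no test across samples was possible and binding cannot be tied to the treatment. The series holds 40 samples in all, and the other lists used here came from mouse HPC-7 haematopoietic progenitors stably expressing the long (p42) or short (p30) isoform of CEBPA fused to ERT2, either without LPS (called untreated here, as in the labels) or given 100 ng/mL LPS for 2 h. Per the study's methods, cells with ERT2 fusions were given 4-hydroxytamoxifen the day before an experiment, which brings the fusion into the nucleus, so untreated does not mean without that drug. A list of ATF4 sites holds no marker by which the identity of KO-52 could be checked.

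ATF4 is a bZIP transcription factor whose mRNA is translated preferentially when eIF2α is phosphorylated, as happens when amino acids run short or when unfolded proteins accumulate in the endoplasmic reticulum. Tunicamycin blocks N-linked glycosylation and so causes the second kind of stress. ATF4 pairs with C/EBP proteins and binds the composite C/EBP-ATF response element, in which part of a C/EBP site is joined to part of a cyclic AMP response element. Its classical targets restore amino acid supply: transporters bring amino acids in, biosynthetic enzymes make the non-essential ones, mitochondrial one-carbon enzymes use serine to charge folate, and aminoacyl-tRNA synthetases load each amino acid on its tRNA.

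The list held 16305 sites on the standard chromosomes, ranked here from 1 by the p-value of the peak caller. Fold is the enrichment at the summit over the local background, and reads are the ChIP reads piled up there, which were recovered as whole numbers for every site. Intervals on reads are exact 95% Poisson intervals and cover counting error only. Across the list the median site had 17 reads and a fold of 7.81.

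The composite element nearest the summit is shown for the 10 genes with the best-ranked promoter sites, together with 5 further genes, of which GPT2 and ASNS hold another form of it, BCAT1 and PHGDH are enzymes of amino acid synthesis and SLC1A5 is a further transporter. Each sequence is 30 bases of hg38 read on the strand given, so that the element points the same way in all of them, and the capitals mark the 8 bases of the element.
YARS1, chr1:32817337-32817366, minus strand: ccgagcccagcTGATGCAAcctggctggac
SARS1, chr1:109214986-109215015, plus strand: tttgatttgtcTGATGCAAtaggtctgcaa
SHMT2, chr12:57230181-57230210, minus strand: ggacccctgccTGATGCAAgcagtgaagct
SLC7A1, chr13:29595139-29595168, minus strand: ggcgtggtgcaTGATGCAAcaccgagtgag
MTHFD2, chr2:74199202-74199231, plus strand: gctgctgcagcTGATGAAAtcgcggagccg
WARS1, chr14:100375595-100375624, minus strand: tgaggggtggcTGATGCAAtgaccagctaa
TARS1, chr5:33440956-33440985, minus strand: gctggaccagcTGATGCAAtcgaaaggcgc
SLC3A2, chr11:62881725-62881754, minus strand: ctcagaggagcTGATGTAAggagtcctgca
SLC7A11, chr4:138242426-138242455, minus strand: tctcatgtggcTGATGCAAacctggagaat
CARS1, chr11:3057407-3057436, plus strand: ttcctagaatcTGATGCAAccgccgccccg
GPT2, chr16:46883950-46883979, plus strand: gtggccttggaTGATGAAActcggggcgat
ASNS, chr7:97872458-97872487, minus strand: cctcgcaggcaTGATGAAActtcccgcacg
BCAT1, chr12:24949131-24949160, minus strand: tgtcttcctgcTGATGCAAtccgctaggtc
SLC1A5, chr19:46784893-46784922, minus strand: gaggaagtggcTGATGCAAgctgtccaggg
PHGDH, chr1:119712786-119712815, plus strand: cgcccctcgtcTGATGCAAgactgctccgt

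Promoter binding was common among the listed genes. A promoter site was found at 33 of the 41 genes (80.5%), beside 6.17% of all protein-coding genes. All 8 transporters and all 4 one-carbon enzymes had one, as did 9 of the 11 synthesis enzymes and 12 of the 18 synthetases. The listed genes have more annotated start sites than the genome at large (median 12 against 5), which widens the window searched. With 1 canonical start site for each gene, 28 of the 41 (68.3%) had a promoter site, beside 2.97% of all genes. The genes that lost their site with the canonical start were CTH, SARS1, GARS1, PSPH and SLC1A5. Their sites lie within 1000 bp of another annotated start but not of the canonical one. Those of CTH and SARS1 lay 1023 and 1062 bp from the canonical start, just outside the window.

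Sites elsewhere in the genes or around them set the list less apart. A gene body site outside the promoter was found in 12 of the 41 genes (29.3%), beside 21.2% of all genes. Long genes have more room for a site, and within classes of length the shares were 0 of 7 genes under 20 kb (3.09% of all such genes), 7 of 24 genes of 20 to 60 kb (29.2%, beside 16.5%) and 5 of 10 genes over 60 kb (50.0%, beside 51.9%). Any site in the gene or within 50 kb was found for 37 genes (90.2%), beside 57.6% of all genes.

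**Figure D1:**
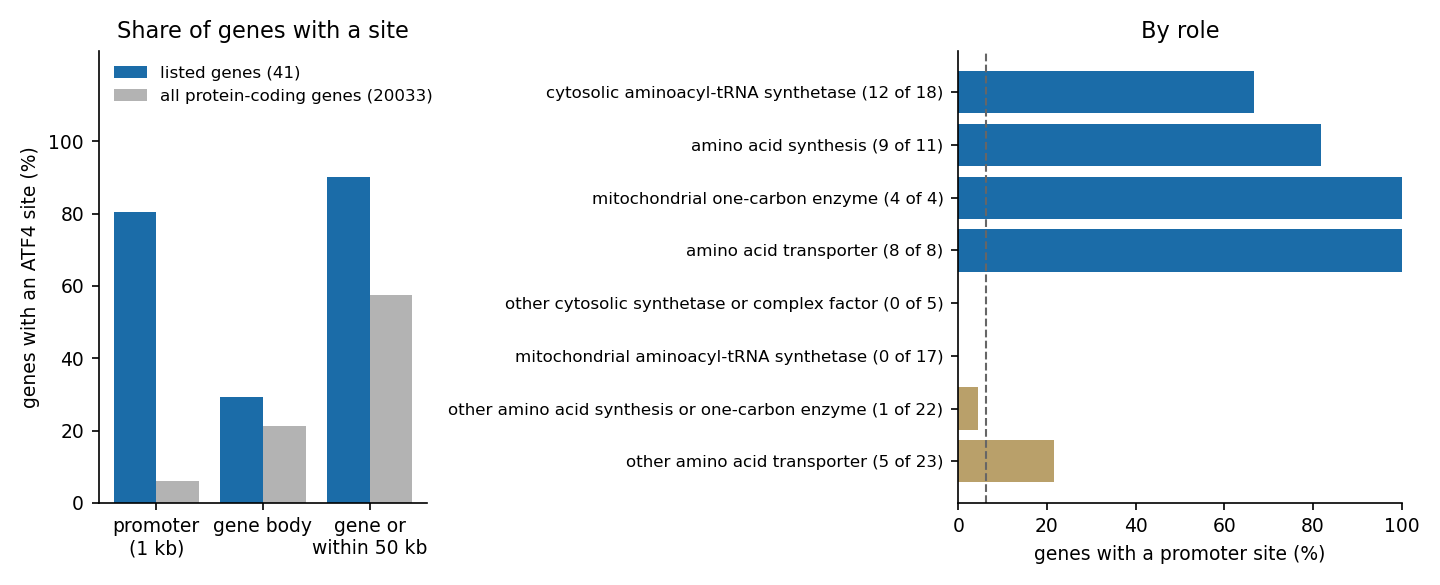
Left, the percentage of the 41 listed genes (blue) and of all 20033 protein-coding genes (grey) with an ATF4 site at the promoter, in the gene body, and in the gene or within 50 kb. Right, the percentage with a promoter site by role, for listed genes (blue) and for 67 other genes of the same pathways (tan), with the share of all genes (6.17%) as a dashed line; the 4 listed roles lie between 66.7% and 100%.

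The promoter sites were also among the strongest of the list. The median rank of the best promoter site was 157 for the 33 listed genes and 7457 for the 1204 other protein-coding genes with a promoter site. A rank of 500 or better was held by 26 of the 33 (78.8%) and by 82 of the 1204 (6.81%). Among the 100 best sites of the list, 19 lay at a protein-coding promoter and 9 of these 19 at a listed gene. Reads at the 33 sites ranged from 24 to 274 with a median of 114, and fold ranged from 9.75 to 82.17 with a median of 44.8.

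**Figure D2:**
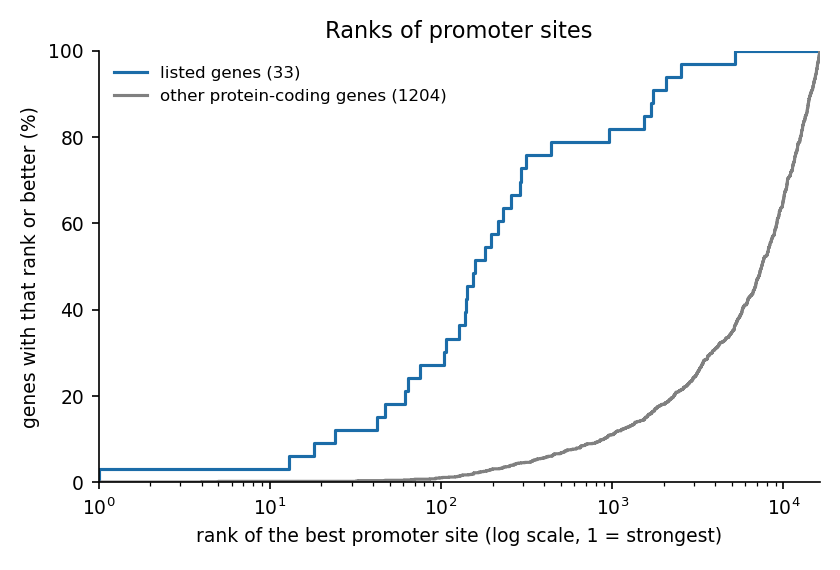
Cumulative percentage of genes (vertical axis) whose best promoter site has a given rank or better (horizontal axis, log scale) among the 33 listed genes with a promoter site (blue) and the 1204 other protein-coding genes with one (grey). The blue curve reaches 78.8% at rank 500, where the grey curve is at 6.81%.

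The tyrosyl-tRNA synthetase gene YARS1 held the first-ranked site of the whole list, with 274 reads (242.5 to 308.4), a fold of 82.17 and a −log10 q of 442.7. Its summit, at position 32817351 of chromosome 1, lay 6 bp downstream of a start site in the 5′ untranslated part of exon 1 and on the composite element itself. The same summit is within 1000 bp of a start of S100PBP, the neighbouring gene, and the list cannot assign it to one of them. SARS1, for seryl-tRNA synthetase, ranked 13 with 254 reads (223.7 to 287.2), a fold of 44.79 and a −log10 q of 328.7. Its summit lay in intron 1, 998 bp downstream of the nearest start, and so only just inside the promoter window. The read intervals of these 2 sites overlapped.

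WARS1, for tryptophanyl-tRNA synthetase, ranked 47 with 184 reads (158.4 to 212.6), a fold of 44.81 and a −log10 q of 244.4, its summit 6 bp upstream of a start and within reach of WDR25 as well. A second site of WARS1 lay in an intron 1095 bp downstream of a start, just outside the window, and ranked higher still at 36, with 159 reads (135.2 to 185.7) and a fold of 72.06. TARS1, for threonyl-tRNA synthetase, ranked 62 with 159 reads (135.2 to 185.7), a fold of 47.81 and a −log10 q of 220.7, its summit 2 bp upstream of a start. CARS1, for cysteinyl-tRNA synthetase, ranked 104 with 134 reads (112.3 to 158.7), a fold of 47.7 and a −log10 q of 190.3, its summit 7 bp upstream of a start. In 4 of these 5 synthetase genes the best promoter summit was thus within 10 bp of an annotated start, SARS1 being the exception.

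The other synthetase genes with a promoter site were MARS1 at rank 128, GARS1 at 180, IARS1 at 231, AARS1 at 294, EPRS1 at 439, NARS1 at 957 and LARS1 at 1683. Reads lay between 114 (94.0 to 136.9) at MARS1 and 46 (33.7 to 61.4) at LARS1, and the intervals of MARS1, GARS1, IARS1, AARS1 and EPRS1 overlapped. The MARS1 site is shared with ARHGAP9 and the AARS1 site with DDX19B. LARS1, for leucyl-tRNA synthetase, had better-ranked sites away from its promoter: one 10128 bp upstream of a start at rank 429 with 71 reads (55.5 to 89.6), and one in an intron at rank 1093 with 47 reads (34.5 to 62.5). The read intervals of both overlapped that of its promoter site.

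Among the one-carbon enzymes, SHMT2, the mitochondrial serine hydroxymethyltransferase, ranked 18 with 185 reads (159.3 to 213.7), a fold of 68.68 and a −log10 q of 294.0, with 2 composite elements within 100 bp of its summit and a start site 17 bp away. MTHFD2, the mitochondrial methylenetetrahydrofolate dehydrogenase, ranked 42 with 165 reads (140.8 to 192.2), a fold of 61.29 and a −log10 q of 254.1. Its summit lay in intron 1, 581 bp downstream of a start. MTHFD1L, which releases formate, ranked 312 with 85 reads (67.9 to 105.1), and ALDH1L2, which oxidises formyl-folate, ranked 2075 with 45 reads (32.8 to 60.2). The intervals of SHMT2 and MTHFD2 overlapped each other and lay above those of MTHFD1L and ALDH1L2.

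Among the transporters, SLC7A1, the cationic amino acid transporter, ranked 24 with 207 reads (179.8 to 237.2), a fold of 50.38 and a −log10 q of 285.4, with its summit in intron 1, 537 bp downstream of the start. SLC3A2, the heavy chain that carries several light chains to the membrane, ranked 64 with 145 reads (122.4 to 170.6), a fold of 56.45 and a −log10 q of 219.8, its summit 8 bp downstream of a start. SLC7A11, the cystine/glutamate exchanger, ranked 75 with 154 reads (130.6 to 180.3), a fold of 46.31 and a −log10 q of 211.6, with its summit 85 bp upstream of the start and 2 composite elements beside it. SLC7A11 and SLC7A5 both pair with SLC3A2. The promoter site of SLC7A5, the large neutral amino acid transporter, was the weakest of the listed genes, at rank 5237 with 24 reads (15.4 to 35.7), an interval that includes the median of the list.

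SLC7A5 had its strong site inside the gene instead. An intronic summit 9904 bp from the nearest start ranked 27, with 176 reads (151.0 to 204.0) and a fold of 65.35, and held a composite element 10 bp from its summit. The read intervals of this site and of the SLC7A5 promoter site did not overlap. Of the other transporters, SLC1A5 ranked 142, SLC6A9 196 and SLC38A2 255, with 94 to 142 reads. SLC1A4 ranked 2511 with 41 reads (29.4 to 55.6). SLC6A9, the glycine transporter, was the only listed gene with 2 promoter sites, the second of them at rank 2506 with 41 reads (29.4 to 55.6).

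Of the synthesis enzymes, GPT2, the mitochondrial alanine transaminase, ranked 107 with 129 reads (107.7 to 153.3) and a fold of 50.69. ASNS, for asparagine synthetase, ranked 138 with 134 reads (112.3 to 158.7) and a fold of 40.34, its summit 14 bp downstream of a start. BCAT1, the cytosolic branched-chain transaminase, ranked 139 and GOT1, the cytosolic aspartate transaminase, ranked 157. PYCR1, which makes proline, ranked 214. The serine pathway was bound at every step but unevenly: PHGDH, its first enzyme, ranked 291 with 107 reads (87.7 to 129.3), PSAT1, the second, ranked 1537 with 41 reads (29.4 to 55.6), and PSPH, the last, ranked 154 with 110 reads (90.4 to 132.6). The PSAT1 interval lay below those of the other two. CTH, which makes cysteine from cystathionine, ranked 1728 with 42 reads (30.3 to 56.8).

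**Figure D3:**
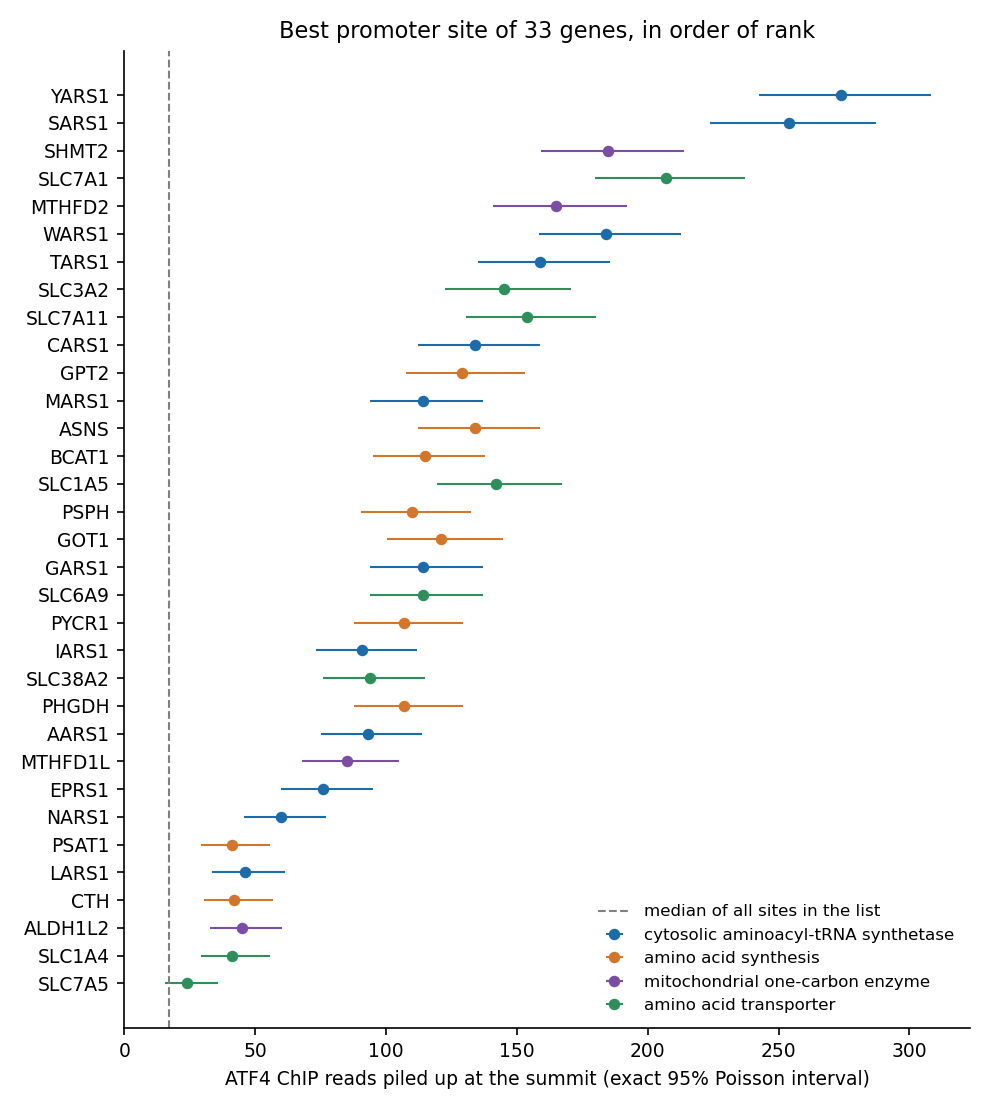
ATF4 ChIP reads at the summit of the best promoter site of each of 33 genes (horizontal axis), from the best-ranked gene at the top, with exact 95% Poisson intervals as bars and colours for the 4 roles. The dashed line is the median of all 16305 sites, 17 reads; SLC7A5 is the only gene whose interval reaches it.

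Most of these sites shared the composite element, as did most sites of the whole list. Its letters, TGATGCAA, were searched on both strands within 100 bp of each summit and were present at 25 of the 34 promoter sites of the listed genes (73.5%). They were found at 525 of the 1178 promoter sites of other genes (44.6%) and at 65.2% of all sites, and at 0 of 68 windows of the same length placed 5 kb to either side of the listed genes' sites. With any base allowed at the sixth position (TGATGNAA, which includes the first form), 30 of the 34 sites held it (88.2%), beside 69.9% for the other promoter sites, 86.5% for all sites and 4 of the 68 windows. Among promoter sites of rank 500 or better, TGATGCAA was at 21 of 26 sites of the listed genes (80.8%) and at 46 of 69 of the others (66.7%), and TGATGNAA was at 26 of 26 and 59 of 69.

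The 5 sites with another sixth base were those of ASNS, GPT2 and MTHFD2, with TGATGAAA, and of SLC3A2 and the better-ranked site of SLC6A9, with TGATGTAA. The ASNS site had 134 reads, as many as that of CARS1, which has TGATGCAA. No composite element was found within 100 bp of the summit at PSAT1, LARS1, CTH and the promoter site of SLC7A5, which were 4 of the 6 lowest-ranked of the 33 genes. The full cyclic AMP response element TGACGTCA, the palindromic C/EBP site TTGCGCAA and the composite element written backwards (AACGTAGT) were at 0 of the 34 sites, and at 0.14%, 0.08% and 0.12% of all sites. Where TGATGCAA was present, it lay a median of 10 bp from the summit.

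The element was also common in the promoters as such. Within 1000 bp of the canonical start, TGATGCAA was present at 24 of the 41 listed genes (58.5%), beside 3.68% of all protein-coding genes. A promoter site at the canonical start was found for 23 of these 24 genes (95.8%), beside 28.2% of all genes with the element there. Of the 17 listed genes without it, 5 had such a site (29.4%), beside 2.00% of all genes without it. Since most of the listed genes are textbook ATF4 targets, these shares describe a list that was not drawn blind to them.

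Summits lay close to start sites, measured to the nearest of all annotated starts of a gene. The listed genes have more of these (median 12 against 5 for all protein-coding genes), which shortens such distances by construction. Distances from the canonical start alone were not compared. The best promoter summit was within 100 bp of a start at 18 of the 33 listed genes (54.5%) and at 296 of the 1204 other genes (24.6%), and the median distance was 73 bp and 338 bp. Of the 33, 12 lay upstream of the nearest start and 21 at or downstream of it. The 7 that lay over 500 bp from every start were all downstream, in the first intron, at SARS1, SLC7A1, MTHFD2, SLC6A9, CTH, ALDH1L2 and SLC7A5.

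**Figure D4:**
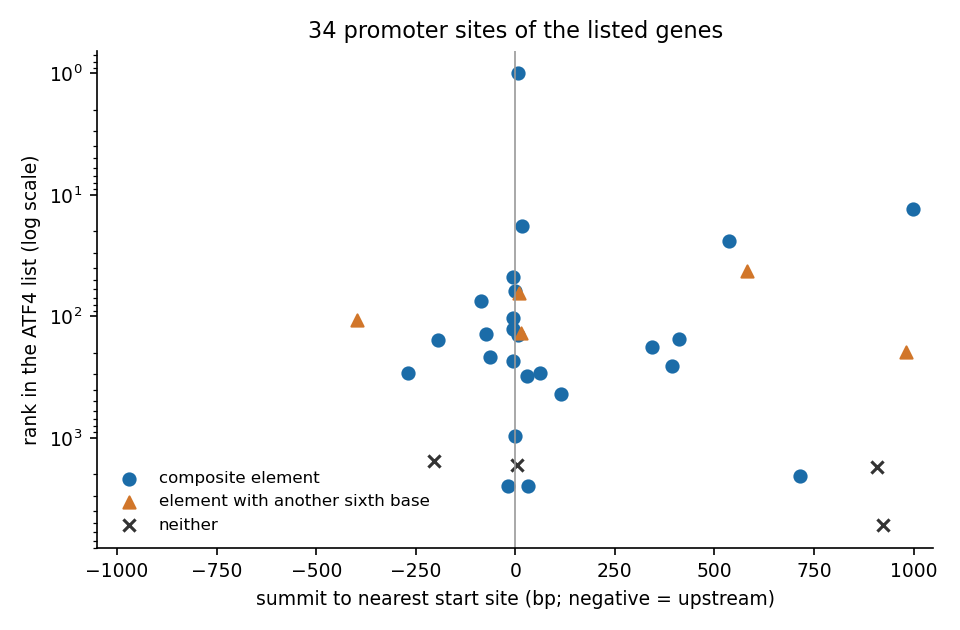
Rank in the ATF4 list (vertical axis, log scale, strongest at the top) against the distance of the summit from the nearest start site in bp (horizontal axis, negative upstream) for the 34 promoter sites of the listed genes. Circles hold the composite element TGATGCAA within 100 bp, triangles a form with another sixth base, and crosses neither; the 4 crosses are at ranks 1537 to 5237.

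The 8 listed genes without a promoter site were 6 synthetases (FARSB, HARS1, KARS1, QARS1, RARS1 and VARS1), ALDH18A1, which starts proline synthesis, and CBS, which makes cystathionine. FARSB had 2 sites within 50 kb, at ranks 9652 and 10773 with 13 and 12 reads. HARS1 had 1 at rank 12713 with 11 reads, KARS1 1 at rank 14563 with 9 reads and RARS1 1 at rank 7169 with 16 reads, the last lying at the promoter of FBLL1. All 5 of these sites had at most the median number of reads of the list. QARS1, VARS1, ALDH18A1 and CBS had no site within 50 kb.

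The promoter of CBS holds TGATGCAA within 1000 bp of the canonical start but no site. All 3 probes of 100 bases taken around its start occur at 2 places in hg38, so a read lying within one fits both places equally. How such reads were placed was not examined, nor was the second place searched for a site. The absence of a site at CBS is therefore uncertain. Probes from the promoters of the other 7 genes each occur once in the sequences searched. Alternate versions of chromosome regions were left out of that search. Copies of these 7 promoters there, that of VARS1 included, were not tested. FARSB, HARS1, KARS1, QARS1, RARS1, VARS1 and ALDH18A1 have no TGATGCAA within 1000 bp of the canonical start. HARS1 and ALDH18A1 each hold 1 form with another sixth base there, and FARSB, KARS1, QARS1, RARS1 and VARS1 hold none.

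Sites near the listed genes but outside their promoters had a poorer median rank than the promoter sites (168.5). The 15 gene body sites had a median rank of 5439, a median fold of 9.46 and a median of 21 reads, 13 of them lay nearest to a start of the listed gene, and 10 of them held TGATGCAA. Apart from those of SLC7A5 and WARS1, all ranked 1093 or lower. The 28 sites within 50 kb had a median rank of 6362.5, and for only 5 of them was the nearest start that of the listed gene. The best of them, at rank 155 with 119 reads (98.6 to 142.4), was counted for MARS1 but lies at the promoters of DDIT3, for the stress factor CHOP, and of MBD6. Another, at rank 253, was counted for SHMT2 and lies at the promoter of NDUFA4L2.

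Related genes outside the list were bound at their promoters far less often. Of 67 other genes of the same pathways, 6 had a promoter site within 1000 bp of a start (8.96%), near the 6.17% of all genes. None of 17 mitochondrial aminoacyl-tRNA synthetases and none of 5 other cytosolic synthetases or complex factors had one. Of 22 other enzymes, 1 had one: BCAT2, the mitochondrial branched-chain transaminase, at rank 12729 with 11 reads (5.5 to 19.7), while its cytosolic relative BCAT1 had 115 reads (94.9 to 138.0) and the intervals did not overlap. Of 23 other transporters, 5 had one: SLC38A1, a glutamine transporter related to SLC38A2, at rank 198 with 108 reads (88.6 to 130.4), SLC43A1 at rank 1397, SLC7A7 at rank 1607, SLC1A3 at rank 5550 and SLC1A1 at rank 9167. The reads at SLC38A1 and SLC38A2 overlapped in their intervals. Chosen after their values were seen, 4 genes outside the list had a site inside the gene at rank 500 or better: ASS1, for argininosuccinate synthetase, at rank 101 with 114 reads (94.0 to 136.9), and AIMP2 and EEF1E1, scaffold proteins of the multi-synthetase complex, at ranks 212 and 324 with 106 reads (86.8 to 128.2) and 91 reads (73.3 to 111.7). The last was SLC1A3, a glutamate transporter, at rank 374 with 75 reads (59.0 to 94.0), well ahead of its promoter site. The listed genes were picked as known or likely targets and these were the remainder, so the contrast between both groups is not independent of that choice.

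Mouse genes of the same symbol, found for all 41, were then located in the lists of HPC-7 cells, where no ATF4 library was made. C/EBP proteins can pair with ATF4 on the composite element. The study, however, found ATF4 precipitated with p42 and not with p30 in cells overexpressing each isoform. In HPC-7 cells whose labels give the treatment as none, CEBPA was precipitated with an antibody to CEBPA or to the oestrogen receptor part of the fusion. There was 1 library for each antibody and isoform. With the CEBPA antibody, a promoter site was found at 25 of 41 genes in p42 cells (61.0%, beside 13.4% of all 21757 mouse protein-coding genes) and at 27 in p30 cells (65.9%, beside 12.2%). With the oestrogen receptor antibody, the counts were 25 in p42 cells (61.0%, beside 11.3%) and 29 in p30 cells (70.7%, beside 17.3%). A site was present in all 4 lists at 20 genes and in none at 10 genes: Hars1, Kars1, Qars1, Rars1, Asns, Bcat1, Slc7a11, Slc7a5, Slc1a5 and Slc6a9. The p42 and p30 counts rest on lists of different length and 1 library each, and no difference between the isoforms can be read from them.

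The listed genes carried H3K27ac at the promoter more often than mouse genes at large. A peak of H3K27ac, a mark of active promoters and enhancers, overlapped the promoter at 35 of 41 genes (85.4%) in untreated p42, untreated p30, LPS-treated p42 and LPS-treated p30 cells, beside 53.6%, 53.5%, 53.2% and 54.8% of all genes. The 6 genes without one in each of the 4 lists were Asns, Cbs, Cth, Bcat1, Aldh1l2 and Slc7a11. Among genes with an H3K27ac promoter peak, the CEBPA antibody gave a promoter site at 22 of 35 listed genes in p42 cells (62.9%, beside 20.3% of all such genes) and at 26 of 35 in p30 cells (74.3%, beside 19.4%). These H3K27ac lists were called on pooled replicates.

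At the promoter sites of the CEBPA antibody the composite element was again frequent. TGATGCAA lay within 100 bp of the summit at 16 of 28 promoter sites of the listed genes in p42 cells (57.1%) and at 220 of 3028 of other genes (7.27%), and in p30 cells at 18 of 30 (60.0%) and 169 of 2651 (6.37%). Within 1000 bp of the canonical start it was present at 25 of the 41 mouse genes (61.0%), beside 4.76% of all mouse genes, and 21 of the 24 genes that hold it in human hold it in mouse as well. Unlike the ATF4 sites, those of the CEBPA antibody had median ranks far from the top of their lists. In p42 cells the median rank was 21607.5 among 47517 sites (22896 for other promoter sites). In p30 cells it was 12368 among 31851, somewhat better than the 15404 of the others. Ranks in the oestrogen receptor lists were not summarised. The best-ranked in both lists of the CEBPA antibody was the site of Iars1. It was at rank 3733 with a fold of 22.57 in p42 cells and at rank 1421 with a fold of 30.73 in p30 cells.

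**Figure D5:**
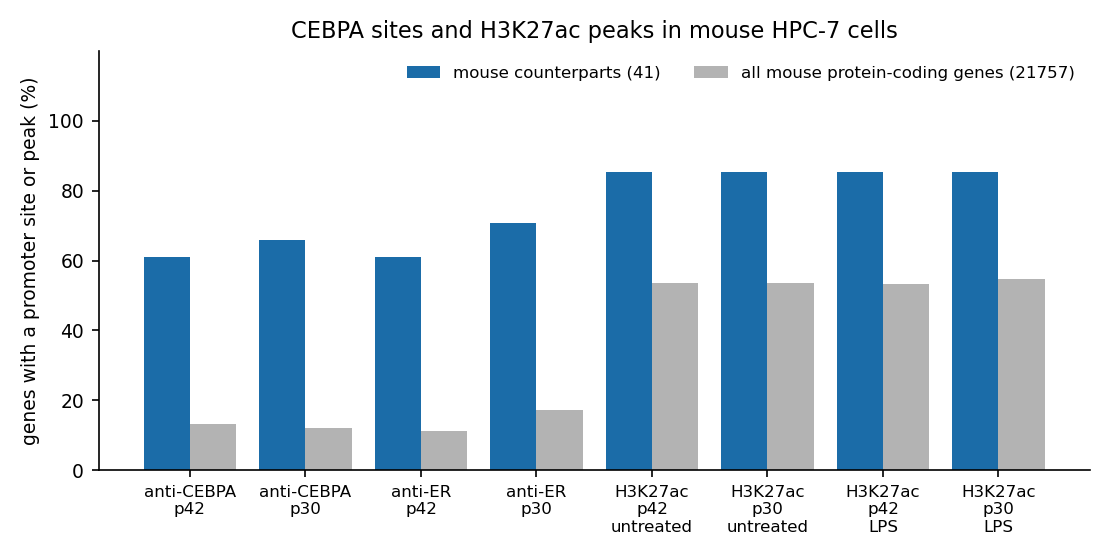
Percentage of genes (vertical axis) with a promoter site or peak in 8 lists of mouse HPC-7 cells, for 41 counterparts of the listed genes (blue) and all 21757 protein-coding genes (grey). The counterparts lie between 61.0% and 70.7% in the 4 CEBPA lists and at 85.4% in each H3K27ac list.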

How the data were processed

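Reads were trimmed with Trim Galore 0.6.6, aligned with Bowtie2 to hg38 (KO-52) or mm39 (HPC-7), freed of duplicates with Picard and called as narrow peaks against input with MACS2 by the authors. The deposited lists give for each peak a fold enrichment (a ratio), −log10 p and −log10 q at the summit. The files give no library totals. The ATF4 list held 16470 sites, of which 16305 lay on standard chromosomes, all with q of about 0.05 or less. Whole reads at each summit were solved from fold, (reads + 1)/(background + 1), and the Poisson p, within 0.001 in log10. All 16305 sites had a solution, and 41 had more than 1, of which the closest was taken. Genes and start sites came from GENCODE 44 (human) and M39 (mouse), protein-coding genes only. Scripts used Python 3 with numpy, pandas, scipy and pysam, and were tested on simulated data. Mouse genes were matched by symbol. The genes, pathway lists and motifs were chosen with earlier results of these data known. Genes were named by their best promoter rank: the 10 best in full, the others by range, and those without a site one by one. The rule for the list asked for a comparison with sampled genes, in place of which the share over all protein-coding genes is given. The H3K4me1 lists were not used. The comparisons rest on 1 list per group, so no p-value is given.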

Additional observations from a re-analysis of the deposited data

How the results depend on the processing

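No paired analysis was possible because each list came from 1 library or 1 pool, so no result comes from a test and no replicate could be left out. Of 37 alternatives, 35 gave a value within 1.5 times that reported. The count of 33 listed genes with a promoter site was 33 with q under 0.01, with q under 1e-05, with any overlap of the peak and with a distance of 2500 bp. None of these settings could lower it. The weakest of the 33 best promoter sites, that of SLC7A5, had a −log10 q of 17.4, and the last 2 settings only add sites. The count was 32 among the 5000 best sites (SLC7A5 was lost). It was 27 with a distance of 500 bp, where CTH, SARS1, MTHFD2, ALDH1L2, SLC7A1 and SLC7A5 were lost. Among the 5000 best sites, 5 listed genes had a gene body site (8.61% of all genes), fewer sites being counted by construction. With 2500 bp, 12 of the 67 pathway genes outside the list had a promoter site (10.5% of all genes), the window being wider by construction. Ranked by fold, the median best promoter site was at 180 in place of 157. With 10 kb around genes, 34 listed genes had any site (33.8% of all genes), and with 100 kb 37 (75.2%). Depth limits the weakest sites most: a site of 9 reads has an interval of 4.1 to 17.1.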
